A study of Rattus norvegicus with 17 samples.

Results

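The regions described here are stretches of rat chromatin that carried acetylation of histone H3 at lysine 27 (H3K27Ac) in immature and mature oligodendrocytes but had no H3K27Ac peak in their precursors, and that held no peak of the promoter mark H3K4me3 and none of the proteins Brg1 and Olig2 at any stage. They are called gained factor-free regions below, where factor means Brg1 or Olig2. The H3K27Ac peaks of the 3 stages were joined into 37372 regions wherever they overlapped or touched. Of these, 4449 met a peak in both iOL and mOL and none in OPC (11.9% of all joined regions), and 1083 of the 4449 were also free of H3K4me3, Brg1 and Olig2 peaks. The 1083 make up 2.90% (95% interval 2.73 to 3.07) of the joined regions. They are 24.3% of the 4449, where 30.1% of all joined regions, of any timing, were free of the same peaks. The regions were chosen by the positions of the H3K27Ac, H3K4me3, Brg1 and Olig2 peaks, so these counts and the widths below are a description.

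The data are chromatin immunoprecipitation with sequencing (ChIP-seq) of primary wild-type Sprague-Dawley rat cells, taken from cortex at postnatal day 2. The cells of every group were grown with the mitogens PDGF-AA at 10 ng/ml and bFGF at 20 ng/ml, and those of the oligodendrocyte precursor stage (OPC) are labelled as treated with mitogens. Both later stages, the immature (iOL) and the mature oligodendrocytes (mOL), are labelled as treated with the thyroid hormone T3, and their differentiation medium is described with T3 at 15 nM and ciliary neurotrophic factor at 10 ng/ml. Each of the 17 libraries gave 1 list of peak positions in build rn4. Every target had 1 library at a stage, and RNA polymerase II (RNAPII) was mapped in iOL and OPC. Without replicates, no test between stages or sets was possible and p-values are left out. The range in brackets after a percentage is its exact Clopper-Pearson 95% interval, and that after a median its exact order-statistic 95% interval. Both count regions, cover counting error only, and treat neighbouring regions as independent. The lists hold no read numbers, so depth is unknown. The H3K27Ac list was shortest in OPC, with 19130 peaks, against 21589 in iOL and 35268 in mOL, and acetylation present in OPC but not called there cannot be told apart from a gain.

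H3K27Ac is placed by acetyltransferases at active enhancers and promoters, and away from H3K4me3 it is commonly used to find enhancers. Olig2 is a DNA-binding regulator needed to form the oligodendrocyte lineage, and Brg1 is the ATPase that drives nucleosome remodelling by the BAF complex. Many other transcription factors act at enhancers during myelination, so an acetylated region without these 2 proteins need not be one without bound protein. The title of the study names the partnership of Brg1 and Olig2, and these regions are a part of the acetylated places that neither list reaches. They are 1083 of the 11243 joined regions of any timing that were free of H3K4me3, Brg1 and Olig2 (9.63%).

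Gained factor-free regions were a minority of the acetylated places called in iOL and mOL and not in OPC. Of the 4449 gained regions, 1401 (31.5%, 30.1 to 32.9) held H3K4me3, and 3048 did not. Among these 3048, Olig2 without Brg1 was found at 1014 (33.3%), both proteins at 738 (24.2%, 22.7 to 25.8) and Brg1 without Olig2 at 213 (6.99%, 6.11 to 7.95), which left 1083 (35.5%, 33.8 to 37.3) with neither. Counted over all 4449 gained regions, with H3K4me3 or without, the 1083 were 24.3% (23.1 to 25.6). On that same base, freedom from H3K4me3, Brg1 and Olig2 was found at 539 of 12223 regions acetylated at all 3 stages (4.41%, 4.05 to 4.79). It was found at 7889 of 14027 regions acetylated in mOL alone (56.2%, 55.4 to 57.1). Across all 37372 joined regions the share was 30.1% (29.6 to 30.6). In the remaining patterns of stages it ran from 15.6% (OPC and mOL without iOL) to 39.1% (iOL alone). These 539 and 7889 regions, and the 1965 gained regions that held Brg1 or Olig2 without H3K4me3, are the 3 sets used for comparison.

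The edge of the rule is narrow. Among placed chromosomes, the regions that stayed in by the smallest gap were chr16:67862780-67863756, which ended 4 bp from an mOL Brg1 peak, chr6:120345761-120346425, 4 bp from an OPC Olig2 peak, and chr14:76943841-76945052, 13 bp from an OPC Olig2 peak. Those left out by the smallest overlap shared 2 bp with an OPC Olig2 peak at chr15:69008167-69009152, 6 bp with an OPC Olig2 peak at chr10:4437650-4438931 and 15 bp with an iOL Olig2 peak at chr16:73302246-73303682. Toward OPC acetylation, the closest region kept was chr4:151019003-151020304, 21 bp from an OPC H3K27Ac peak, and the factor-free region of all stages with the least overlap, chr12:42387421-42388364, had 160 bp acetylated both in OPC and at a later stage.

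The gained factor-free regions were of middle width. Their median was 1186 bp (1132 to 1238), with quartiles of 812 and 1662.5 bp and a range of 386 to 6165 bp, and together they covered 1.48 Mb. The factor-free regions of all stages had a median of 1405 bp (1345 to 1475) and those of mOL alone a median of 662 bp (654 to 671). Gained regions with Brg1 or Olig2 had a median of 1400 bp (1363 to 1441). All 37372 joined regions had a median of 882.5 bp. The gained factor-free regions were therefore wider than those of mOL alone and narrower than the other 2 sets. A region that meets a factor peak anywhere along its length is left out, and the union over stages sets each width, so width is not independent of the rule. The difference from the regions of all stages was -219 bp, and -45 bp (-203 to 113) when the wider 50% of every list was used, where the sets were no longer separate.

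**Figure D1:**
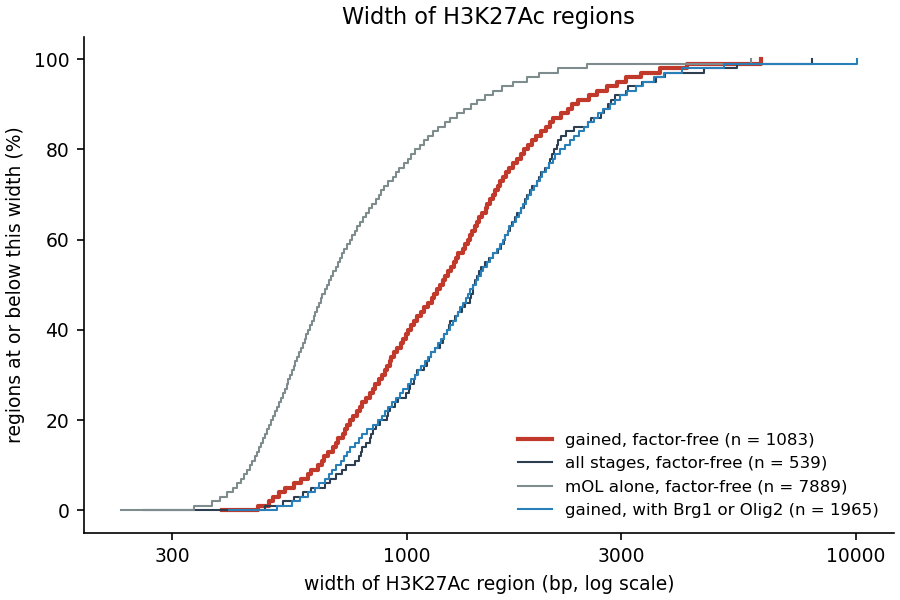
Cumulative share of regions (vertical, percent) by width in bp (horizontal, log scale) for the gained factor-free regions and the 3 comparison sets, drawn at each percentile. The curve of the 1083 gained factor-free regions, with a median of 1186 bp, lies between that of the regions of mOL alone (662 bp) and those of the other 2 sets (1405 and 1400 bp).

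Inside the regions the mOL peak was usually the longer one. Acetylation in mOL covered a median of 1047 bp (988 to 1114) of each region, against 681 bp (660 to 708) in iOL. The mOL stretch was longer at 830 of 1083 regions (76.6%, 74.0 to 79.1) and the iOL stretch at 253 (23.4%, 20.9 to 26.0). The median ratio of mOL to iOL length was 1.4 (1.33 to 1.44), and the mOL stretch was at least 1.5 times as long at 481 regions (44.4%, 41.4 to 47.4), the iOL stretch at 54 (4.99%, 3.77 to 6.46). A median of 59.0% (57.4 to 60.8) of a region was acetylated in both stages. At 956 regions (88.3%, 86.2 to 90.1) a single iOL peak met a single mOL peak.

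The longer mOL stretch was shared with other regions. Gained regions with Brg1 or Olig2 had a median ratio of mOL to iOL length of 1.32 (1.29 to 1.36), which overlapped that of the gained factor-free regions, and factor-free regions of all stages had one of 1.18 (1.13 to 1.24). Over the whole H3K27Ac lists the median peak was 745 bp wide in OPC, 793 bp in iOL and 827 bp in mOL. The part of library depth in the ratio was not tested.

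**Figure D2:**
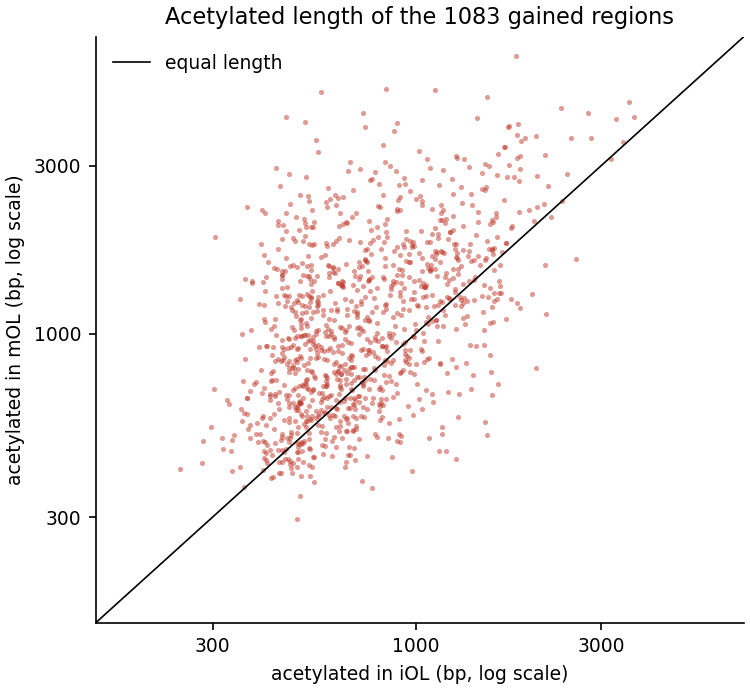
Acetylated length in mOL (vertical) against that in iOL (horizontal), both in bp on log scales, with 1 point for each of the 1083 gained factor-free regions and a line of equal length. Of these points, 830 lie above the line and 253 below it.

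At the widest regions nearly all of the length was acetylated in mOL. The widest, chr3:149480841-149487005, was 6165 bp long, and a single mOL peak covered all of it, whereas 2 iOL peaks covered 1817 bp. At chr2:145065299-145070426 (5128 bp) acetylation covered 4957 bp in mOL and 840 bp in iOL. The regions chr18:41462109-41467030 (4922 bp), chr5:22836062-22840922 (4861 bp) and chr1:190124699-190129419 (4721 bp) were covered from end to end in mOL and over 1125, 572 and 1524 bp in iOL. None of the 5 met an RNAPII peak. Their nearest Olig2 or Brg1 peak of any stage was 3.12 to 46.7 kb away. The widest region also lay 3.01 kb from an OPC H3K27Ac peak, and the one on chromosome 2 lay 333 kb from one.

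The ratio of mOL to iOL length differed along the range of widths. Since the union of both peaks sets the width and the mOL peak was usually the longer, this ratio is tied to width by construction. From the narrowest to the widest quartile of regions, the median ratio of mOL to iOL length was 1.08, 1.34, 1.55 and 2.01. The median distance to an iOL Brg1 peak was 95.8, 107, 80.9 and 87.9 kb, and that to an mOL Brg1 peak 138, 118, 79.5 and 55.5 kb. Olig2 of iOL lay at a median of 13.1, 10.9, 13.5 and 8.77 kb. Across the 1083 regions, Spearman's rho of width with distance was -0.15 for mOL Brg1, -0.05 for iOL Olig2 and -0.03 for iOL Brg1. These are descriptions over regions that share the same libraries.

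The word distal holds for most but not all of these regions. The nearest H3K4me3 peak of any stage lay at a median of 25.2 kb (22.2 to 28.3), which was farther than for the factor-free regions of all stages (15.4 kb, 12.1 to 20.1) and nearer than for those of mOL alone (39.3 kb, 37.8 to 40.9). H3K4me3 lay within 1 kb of 81 regions (7.48%, 5.98 to 9.21) and within 10 kb of 327 (30.2%, 27.5 to 33.0). Across all 11243 regions free of H3K4me3, Brg1 and Olig2 these shares were 6.91% (6.45 to 7.40) and 24.8% (24.0 to 25.6). Gained regions with Brg1 or Olig2 were farther from H3K4me3, at a median of 48.5 kb (43.9 to 53.1). It lay within 1 kb of 1.68% (1.16 to 2.35) of them and within 10 kb of 15.6% (14.0 to 17.3). Distances to transcription start sites were not analysed here.

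Acetylation already called in OPC was often close by. The nearest OPC H3K27Ac peak lay at a median of 12.4 kb (11.0 to 14.3). It was within 1 kb of 130 gained factor-free regions (12.0%, 10.1 to 14.1), over 1 kb to 10 kb from 355 (32.8%), over 10 kb to 100 kb from 467 (43.1%, 40.1 to 46.1) and farther from 131 (12.1%, 10.2 to 14.2). The 130 regions next to an OPC peak were the narrowest, with a median of 828.5 bp (757 to 941), against 1191 bp (1101 to 1345), 1276 bp (1209 to 1345) and 1156 bp (977 to 1279) in the other classes from near to far. Gained regions with Brg1 or Olig2 lay farther from OPC acetylation, with a peak within 1 kb at 5.55% (4.58 to 6.65) and within 10 kb at 25.5% (23.6 to 27.5). Within 10 kb the share was 44.8% (41.8 to 47.8) for the gained factor-free regions and 30.3% (29.3 to 31.3) for those of mOL alone.

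RNAPII, the enzyme that transcribes messenger RNA and that can also be found at active enhancers, was not part of the rule. An iOL RNAPII peak was met by 11 gained factor-free regions (1.02%, 0.508 to 1.81). Across all joined regions 4.23% met one, and across all 11243 regions free of H3K4me3, Brg1 and Olig2 0.471% did. The share was 3.71% (2.28 to 5.67) at the 539 factor-free regions of all stages, 0.228% (0.135 to 0.360) at those of mOL alone and 0.560% (0.280 to 0.999) at gained regions with Brg1 or Olig2. The gained factor-free regions thus lay between the other 2 factor-free sets, with intervals that did not overlap, and could not be separated from gained regions with a factor. In OPC, RNAPII met 1 of them (0.0923%, 0.00234 to 0.513), where the share was 0.92% of all joined regions and 0.116% of those free of H3K4me3, Brg1 and Olig2. The RNAPII lists held 1425 peaks in iOL and 332 in OPC, so few regions of any kind could meet one. The regions of mOL alone had no iOL H3K27Ac peak by definition, and RNAPII was not mapped in mOL. Their share was thus read at a stage where they were not called acetylated.

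The order of the RNAPII shares in the 3 factor-free sets was the same in each width class and away from H3K4me3, but the intervals were not always separate. Among regions more than 5 kb from every H3K4me3 peak, iOL RNAPII was met by 9 of 873 gained factor-free regions (1.03%, 0.472 to 1.95), by 2.69% (1.3 to 4.89) of those of all stages and by 0.0878% (0.0322 to 0.191) of those of mOL alone. There the gained regions could no longer be separated from those of all stages. Under 1 kb of width the share was 1.16% (0.379 to 2.69) of gained factor-free regions, 6.29% (2.92 to 11.6) of those of all stages and 0.244% (0.137 to 0.403) of those of mOL alone, and there the gained regions were separate from those of all stages and not from those of mOL alone. At 1 kb to under 2 kb it was 0.417% (0.0505 to 1.5) of gained factor-free regions, 1.52% (0.416 to 3.85) of those of all stages and 0.131% (0.0158 to 0.471) of those of mOL alone, from 2, 4 and 2 regions, and the gained regions were separate from neither set. At 2 kb and over it was 2.31% (0.633 to 5.81) of gained factor-free regions, 5.26% (2.14 to 10.5) of those of all stages and 0.452% (0.0115 to 2.5) of those of mOL alone, with intervals that overlapped.

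The 11 regions with iOL RNAPII were 716 to 3221 bp wide, with a median of 1455 bp, against 1184 bp for the 1072 without it. They lay 2.11 to 97.1 kb from H3K4me3, and 2 were within 5 kb of it. The 5 widest were chr1:189579768-189582988 (3221 bp, 4.54 kb from an mOL Brg1 peak), chr3:9759763-9762522 (2760 bp, 8.56 kb from an iOL Olig2 peak), chr3:8832051-8834447 (2397 bp, 7.14 kb from an iOL Olig2 peak), chr2:176181848-176183958 (2111 bp, 25.6 kb from an OPC Olig2 peak) and chr10:107365560-107367361 (1802 bp, 4.99 kb from an OPC Olig2 peak). The region with RNAPII in both iOL and OPC was the narrowest of the 11, chr8:69445219-69445934, 716 bp wide, 2.75 kb from an OPC H3K27Ac peak and 3.00 kb from H3K4me3.

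H3K9me3, a mark of silenced chromatin, was also outside the rule. It was rare at these regions. Its shares in OPC and mOL were above those of both backgrounds given here. The intervals of both shares included the value for all regions free of H3K4me3, Brg1 and Olig2. In OPC, H3K9me3 met 6 gained factor-free regions (0.554%, 0.204 to 1.20), with 0.198% of all joined regions and 0.222% of those free of H3K4me3, Brg1 and Olig2. No region met it in iOL (0 of 1083, which allows a share of up to 0.277%), where 0.0375% and 0.0445% of those backgrounds did. In mOL it met 14 (1.29%, 0.708 to 2.16), with 0.508% and 0.765% of the backgrounds. Gained regions with Brg1 or Olig2 met it at 0.458% (0.210 to 0.868) in OPC and 1.07% (0.663 to 1.63) in mOL. Median width was 1186 bp for the gained factor-free regions, against 882.5 and 701 bp in the backgrounds. The part of width in these shares was not tested. The H3K9me3 list was also shortest for iOL, at 827 peaks, against 3149 for OPC and 7103 for mOL. The counts of 6, 0 and 14 regions rank by stage as these list lengths do. Whether the 0 of iOL reflects more than its short list was not tested. Counting any stage, 18 regions carried H3K9me3 (1.66%, 0.988 to 2.61), against 1 of the 539 factor-free regions of all stages (0.186%, 0.00470 to 1.03), 0.913% (0.715 to 1.15) of those of mOL alone and 1.27% (0.825 to 1.87) of gained regions with a factor. The intervals overlapped with all 3 sets, and with that of all 11243 regions free of H3K4me3, Brg1 and Olig2 (0.881%, 0.716 to 1.07). The widest of the 18, chr11:24519690-24523798, was 4109 bp long and met H3K9me3 in both OPC and mOL.

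**Figure D3:**
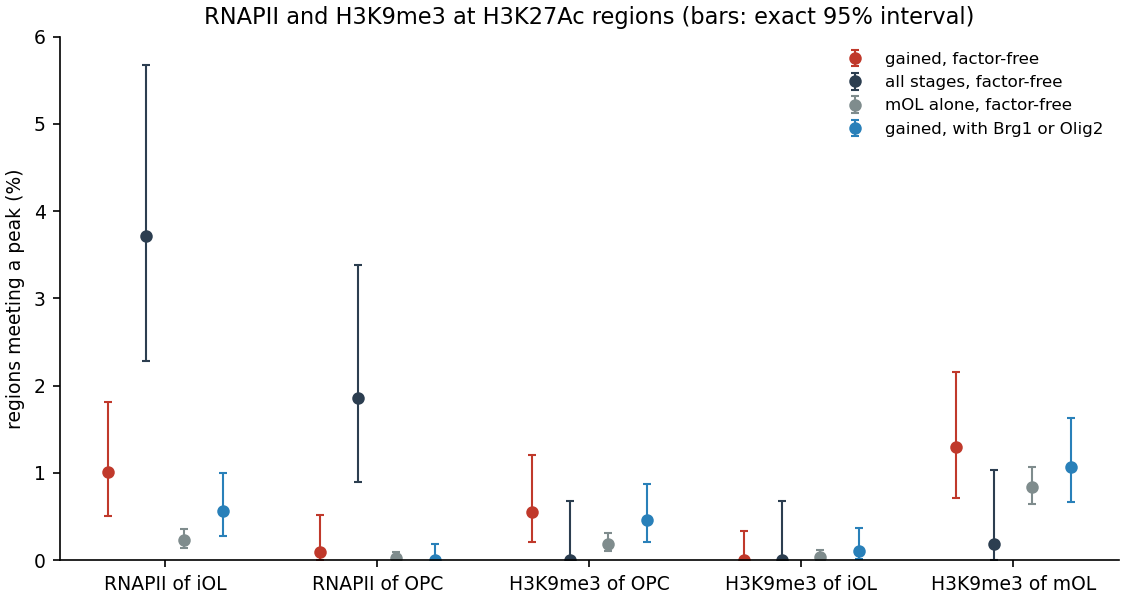
Share of regions (vertical, percent) that met an RNAPII or H3K9me3 peak of the stage named on the horizontal axis, for the gained factor-free regions and the 3 comparison sets; points are shares and bars exact 95% intervals over regions. Shares of the gained factor-free regions lie between 0 and 1.29%, with iOL RNAPII at 1.02% against 3.71% at factor-free regions of all stages.

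Most of these regions stood alone among their own kind but near other acetylated chromatin. Joining gained factor-free regions across gaps of up to about 13 kb, the gap often used to build acetylated domains, gave 975 groups. Of the groups, 883 held 1 region, 81 held 2, 6 held 3 and 5 held 4. A neighbour of the same kind within about 13 kb was thus found for 200 regions (18.5%, 16.2 to 20.9), and the median distance to one was 231 kb. The share was 8.92% (6.65 to 11.7) for 538 regions of all stages, 49.6% (48.5 to 50.7) for the 7889 of mOL alone and 18.3% (16.6 to 20.1) for the 1965 with a factor. Larger sets lie closer together on the same genome, so these shares do not compare clustering between sets of unlike size.

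The nearest other acetylated region of any kind gives a common target. It lay at a median of 1.39 kb (1.14 to 1.67) from a gained factor-free region, and within about 13 kb of 882 of them (81.4%, 79.0 to 83.7). That share was 82.4% (78.9 to 85.5) for factor-free regions of all stages, 75.5% (74.5 to 76.5) for those of mOL alone and 70.3% (68.3 to 72.3) for gained regions with a factor. When all joined regions were linked across the same gap, 201 gained factor-free regions (18.6%, 16.3 to 21.0) formed a domain by themselves. So did 17.6% (14.5 to 21.1) of regions of all stages and 24.5% (23.5 to 25.5) of those of mOL alone. The domain held another acetylated region with Olig2 for 546 (50.4%, 47.4 to 53.4), with Brg1 for 323 (29.8%, 27.1 to 32.6) and with H3K4me3 for 461 (42.6%, 39.6 to 45.6). It held acetylation called in OPC for 616 (56.9%, 53.9 to 59.9). For 734 (67.8%, 64.9 to 70.6) at least 1 of Brg1, Olig2 and H3K4me3 was present in the domain, against 70.9% (66.8 to 74.7) for regions of all stages and 54.9% (53.8 to 56.0) for those of mOL alone.

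The longest groups of 4 differed in what lay between their regions. The group at chr4:162276840-162301226 spanned 24.4 kb and 8 acetylated regions, with 5 Olig2 peaks and 3 OPC H3K27Ac peaks between its regions, and its nearest Brg1 peak of iOL was 517 kb away. The group at chr20:43593092-43613000 spanned 19.9 kb, also with 8 acetylated regions, and held 1 Olig2 peak and no OPC H3K27Ac peak. The group at chr3:8830184-8846728 spanned 16.5 kb with no Brg1, Olig2 or H3K4me3 peak inside, 1 OPC H3K27Ac peak, and iOL RNAPII at its region of 2397 bp named above. A second region with RNAPII, of 2760 bp, belonged to a group of 3 at chr3:9753007-9762522.

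The densest stretch, chosen after its values were seen as the 500 kb window with the most regions, was on chromosome 20. It held 13 gained factor-free regions in 274 kb at chr20:43405590-43679735, among them 2 of the 5 groups of 4. These 13 were 690 to 3607 bp wide, with a median of 2039 bp, and 9 were wider than the median of all 1083. Another 28 acetylated regions lay in the stretch, of which 10 were called in OPC, 13 held Olig2, 4 held Brg1 and 3 held H3K4me3. Of Olig2 peaks, the stretch held 10 from OPC, 15 from iOL and 0 from mOL. Of Brg1 peaks it held 0 from OPC, 3 from iOL and 4 from mOL, and there was no RNAPII peak of iOL. From each of the 13, the nearest Brg1 or Olig2 peak of any stage lay 236 to 14240 bp away.

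**Figure D4:**
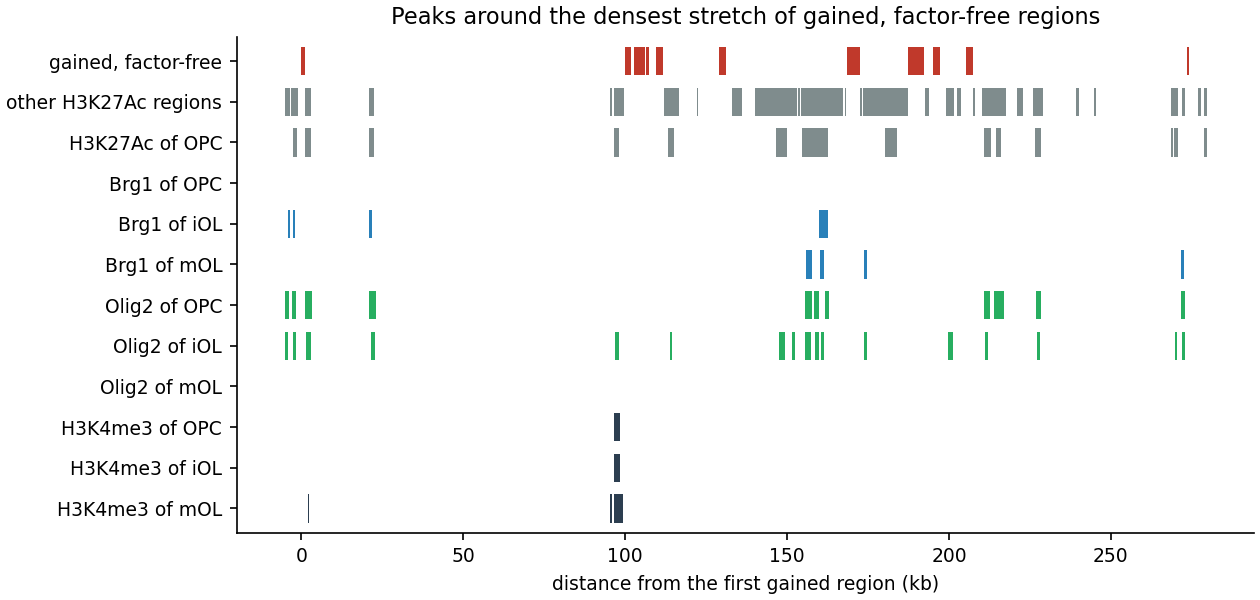
Peaks along the densest stretch of gained factor-free regions, in kb from the first of them, with 1 row for these regions, 1 for all other joined H3K27Ac regions and 1 for each list named; short flanks outside the stretch are drawn too. The 13 gained factor-free regions lie among other acetylated regions, 28 of them inside the stretch. That they do not lie on Olig2 or Brg1 peaks was set by the rule.

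Brg1 was far from most gained factor-free regions. The median distance to the nearest Brg1 peak of OPC was 2349 kb (2037 to 2614), that to one of iOL 93.1 kb (82.0 to 106) and that to one of mOL 94.3 kb (81.4 to 108), from lists of 452, 5465 and 4378 peaks. An OPC Brg1 peak lay within 10 kb of 11 regions (1.02%, 0.508 to 1.81), an iOL peak of 140 (12.9%, 11.0 to 15.1) and an mOL peak of 171 (15.8%, 13.7 to 18.1). Since a shorter list lies farther away by its length alone, the 452 widest peaks of each stage were also used. These gave medians of 2349 kb (2037 to 2614) for OPC, 1904 kb (1705 to 2073) for iOL and 1523 kb (1406 to 1703) for mOL, the last 2 over 1067 regions on sequence that held such a peak. With lists of equal number mOL Brg1 was nearest, and the intervals of OPC and iOL overlapped.

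Set beside the other factor-free regions, the distances to Brg1 of OPC and iOL had overlapping intervals, and Brg1 of mOL was nearer than for the regions of all stages over all widths, though not separably so in each class below. In iOL the medians were 93.1 kb for the gained factor-free regions, 100 kb (85.1 to 120) for those of all stages and 99.3 kb (94.7 to 104) for those of mOL alone. In mOL they were 94.3 kb (81.4 to 108) for the gained factor-free regions, 139 kb (114 to 173) for those of all stages and 104 kb (98.7 to 110) for those of mOL alone. An mOL Brg1 peak lay within 10 kb of 15.8% (13.7 to 18.1) of the gained factor-free regions, 9.83% (7.45 to 12.7) of those of all stages and 15.6% (14.8 to 16.4) of those of mOL alone. In OPC the medians were 2349 kb for the gained factor-free regions, 2579 kb (2254 to 3074) for those of all stages and 2412 kb (2287 to 2496) for those of mOL alone. The mOL medians of the gained factor-free regions and those of all stages were 83.8 kb (73.4 to 96.0) and 116 kb (90.3 to 152) among regions more than 5 kb from H3K4me3, with intervals that overlapped. The intervals also overlapped under 1 kb of width, at 124 kb for the gained factor-free regions and 201 kb for those of all stages, and at 1 kb to under 2 kb, at 89.6 kb (73.7 to 107) for the gained regions and 127 kb (90.3 to 162) for those of all stages. They were separate at 2 kb and over, at 53.6 kb (30.5 to 80.9) for the gained factor-free regions and 105 kb (86.4 to 173) for those of all stages. With the 452 widest peaks the mOL medians of 1523 kb (1406 to 1703) and, for regions of all stages, 1789 kb (1487 to 2232) overlapped in their intervals.

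Olig2 was much nearer than Brg1 in OPC and iOL, where its peak lists were also the longer ones. The median distance to its nearest OPC peak was 19.2 kb (17.3 to 21.1), to its nearest iOL peak 11.2 kb (9.82 to 13.0) and to its nearest mOL peak 230 kb (204 to 262), from lists of 21901, 25787 and 2759 peaks, with no mOL value for 5 regions on unplaced sequence. An OPC peak lay within 10 kb of 33.5% of regions (30.7 to 36.4), an iOL peak of 47.4% (44.4 to 50.4) and an mOL peak of 4.64% (3.46 to 6.07). With the 2759 widest peaks of each stage the medians were 172 kb (148 to 207) for OPC, 129 kb (112 to 150) for iOL and 230 kb (204 to 262) for mOL. The interval of OPC overlapped both others, and those of iOL and mOL did not overlap. In mOL, where the Brg1 list was the longer one (4378 against 2759 peaks), Brg1 was nearer, at 94.3 kb against 230 kb. Lists of equal number were made within each factor and not between factors, so list length and factor cannot be told apart here.

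Olig2 of iOL was nearer to the gained factor-free regions than to those of mOL alone, and its distance could not be separated from that of all stages. The medians were 11.2 kb (9.82 to 13.0) for the gained regions, 15.2 kb (14.5 to 15.9) for mOL alone and 10.4 kb (9.01 to 12.8) for all stages. Within 10 kb the share was 47.4% (44.4 to 50.4) for the gained regions, 39.5% (38.4 to 40.5) for mOL alone and 48.6% (44.3 to 52.9) for all stages. With lists of equal number the medians were 129 kb (112 to 150) for the gained regions, 192 kb (182 to 202) for mOL alone and 111 kb (91.3 to 144) for all stages. In regions of 1 kb to under 2 kb the medians of the gained regions and those of mOL alone were 12.8 and 13.8 kb, with intervals that overlapped. For OPC Olig2 the medians were 19.2 kb (17.3 to 21.1) for the gained regions, 20.3 kb (19.5 to 21.1) for mOL alone and 17.2 kb (14.4 to 19.2) for all stages. For mOL Olig2 they were 230 kb (204 to 262) for the gained regions, 237 kb (228 to 246) for mOL alone and 289 kb (246 to 338) for all stages, and intervals overlapped in both.

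**Figure D5:**
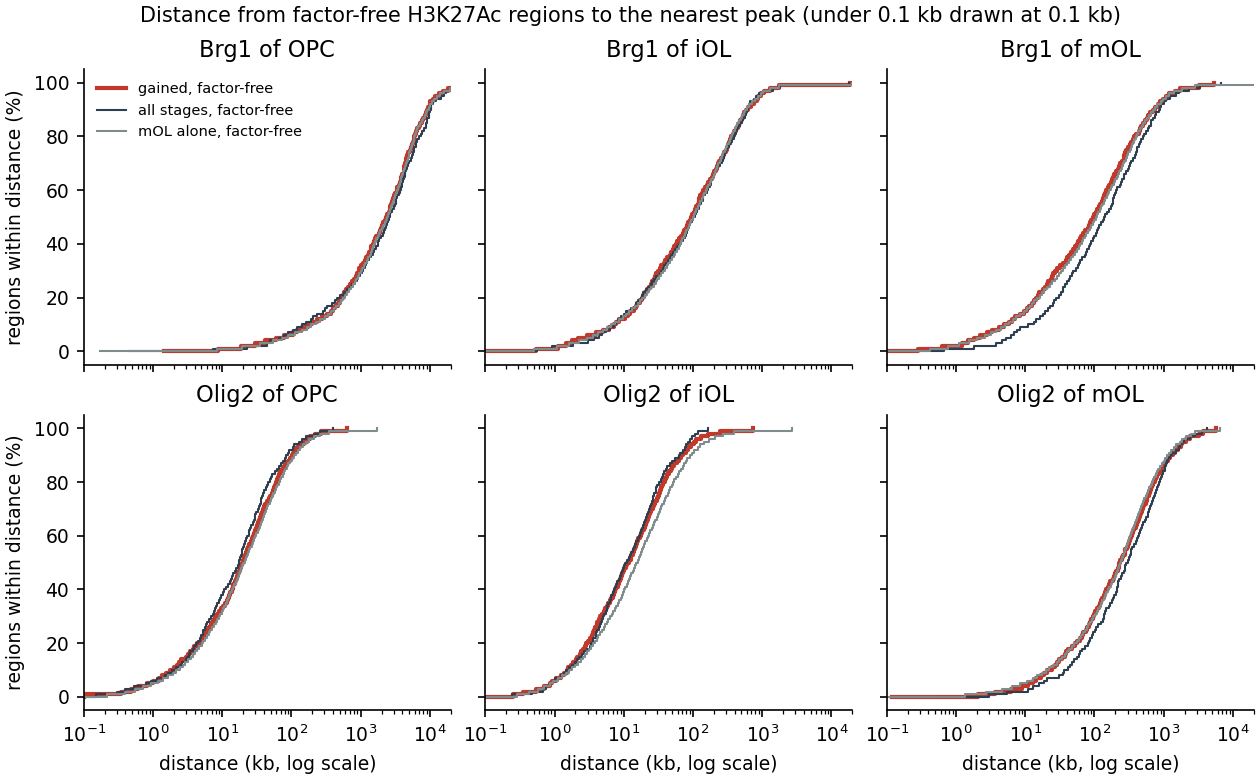
Cumulative share of regions (vertical, percent) by distance in kb (horizontal, log scale) to the nearest Brg1 peak (top row) and Olig2 peak (bottom row) of OPC, iOL and mOL, for the 3 factor-free sets, drawn at each percentile. The curves nearly coincide for Brg1 of OPC and iOL; for mOL Brg1 the gained regions (median 94.3 kb) lie left of those of all stages (139 kb), and for iOL Olig2 (11.2 kb) left of those of mOL alone (15.2 kb).

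Taking all stages of both proteins, the nearest peak lay at a median of 8.64 kb (7.53 to 9.59). That peak was Olig2 of OPC for 521 regions, Olig2 of iOL for 418, Brg1 of mOL for 81, Brg1 of iOL for 57, Olig2 of mOL for 6 and Brg1 of OPC for 0. Distances are edge to edge, and the median Olig2 peak was 1312 bp wide in OPC against 720 bp in iOL. The part of peak width in these counts was not tested. Within 10 kb, Olig2 alone was found for 361 regions (33.3%, 30.5 to 36.2), both proteins for 189 (17.5%, 15.2 to 19.8), Brg1 alone for 31 (2.86%, 1.95 to 4.04) and neither for 502 (46.4%, 43.4 to 49.4). A peak of either protein lay within 10 kb of 53.6% (50.6 to 56.65) of these regions. The share was 55.3% (51.0 to 59.5) for regions of all stages and 47.9% (46.8 to 49.0) for those of mOL alone. Their median distances to such a peak were 8.53 kb (7.4 to 9.7) and 10.7 kb (10.3 to 11.2). Neither protein was found within 100 kb of 38 gained factor-free regions (3.51%, 2.49 to 4.78). A peak of either lay within 100 kb of 96.5% (95.2 to 97.5) of them, 98.5% (97.1 to 99.4) of regions of all stages and 95.2% (94.7 to 95.6) of those of mOL alone. The farthest gained factor-free regions were chr1:111520361-111521395, with its nearest factor peak 532 kb away, chrX:55661985-55663860, at 406 kb, and chr10:79986183-79986914, at 340 kb. At 1035, 1876 and 732 bp in width, these 3 fell within the range of the other regions.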

How the data were processed

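Peaks were called with MACS 1.4.0 on build rn4, per the submitters' processing notes. Aligner, peak threshold, control library, filters and pooling: not given in the sources used here. Deposited files hold positions alone, in 3 columns (chromosome and both ends of a peak), with no score, so a longer list may reflect depth or threshold. Starts were taken to count from 0, as in the BED format, and are printed with 1 added. H3K27Ac peaks that overlapped or touched were joined, and overlap meant at least 1 bp. Distances are edge to edge to the nearest peak on the same chromosome. Unplaced sequence was kept in counts (5 regions) and left out of named regions. Named regions were the 5 widest, the 3 groups with the most regions, the 3 farthest from a factor, the 5 widest with RNAPII and those at the edge of the rule; others were chosen after their values were seen. The regions, comparison sets and measures were chosen with earlier results of these data known. The limits for a count of 0 are those of 3 counts.

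The annotation and sequence tables at hand are of another rat assembly, so no gene is named, no sequence is printed and no cell-type marker was checked. Joining, overlap and distance were tested on simulated lists with planted regions and checked against bedtools 2.31.1, with equal counts for 4 pairs of lists and 37372 joined regions. Calculations used Python 3.11.15, numpy 2.4.6, pandas 2.3.3, scipy 1.17.1 and matplotlib 3.10.9. Alternatives tried were an overlap of 50% of the shorter peak, a margin of 1000 bp around the region for factors and H3K4me3 or for OPC H3K27Ac, no unplaced sequence, H3K27Ac or factor lists of equal number by width, the wider 50% of every list, factors of iOL and mOL only, distance between centres and joining across 5 or 25 kb. Width classes and regions more than 5 kb from H3K4me3 were added after the data were seen.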

Additional observations from a re-analysis of the deposited data

How the results depend on the processing

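With 1 library for each target and stage, leaving out a replicate was not possible. No paired analysis was possible because no group has a second library. Overlap of 50% changes only the excluded peaks, since every H3K27Ac peak lies inside its joined region. The number of regions was 641 with H3K27Ac lists of equal number and 716 with the wider 50% of every list, against 1083, and lay between 902 and 1217 under the other alternatives. Median width was 1479 bp with H3K27Ac lists of equal number, 1659 bp with the wider 50% and 1246.5 bp with no factor or H3K4me3 within 1000 bp. The share with iOL RNAPII was 0.417% at widths of 1 kb to under 2 kb and 2.31% at 2 kb and over. The share with a neighbour of the same kind was 13.6% with H3K27Ac lists of equal number and 11.9% with the wider 50%; it was 13.8% at a joining distance of 5 kb and 21.7% at 25 kb. With the wider 50% of every list, median distances to Brg1 were 5141 kb in OPC, 183 kb in iOL and 159 kb in mOL, and to Olig2 36.0, 20.1 and 576 kb. Factor lists of equal number gave 1904 kb for Brg1 of iOL, 1523 kb for Brg1 of mOL, 172 kb for Olig2 of OPC and 129 kb for Olig2 of iOL. Brg1 of mOL lay at 75.9 kb with H3K27Ac lists of equal number, 124 kb in regions under 1 kb and 53.6 kb in regions of 2 kb and over. Olig2 of iOL lay at 9.59 kb with 50% overlap, 13.4 kb with no factor or H3K4me3 within 1000 bp and 8.46 kb in regions of 2 kb and over. Shorter lists by construction hold fewer regions and lie farther away; other causes were not tested. Another 69 values of these results stayed within the interval, or for counts within 1.5 times, of the value reported. Differences whose intervals were separate as reported kept their direction under every alternative run, but the intervals then overlapped in some. Beside the cases given in the report, these were, for iOL RNAPII against regions of all stages with no factor or H3K4me3 within 1000 bp (-2.26 percentage points), and against those of mOL alone with H3K27Ac lists of equal number (0.79) or the wider 50% (0.871), for mOL Brg1 against regions of all stages with no factor or H3K4me3 within 1000 bp (-30.0 kb), and for iOL Olig2 against mOL alone with H3K27Ac lists of equal number (-3.51 kb). Depth is unknown, so a region free of a peak may hold a signal below the authors' threshold.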

Other observations

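The gained factor-free regions were spread over all 21 placed chromosomes, with 130 on chromosome 1 and 11 on chromosome X at the extremes. As a share of the joined H3K27Ac regions of the same chromosome they ranged from 1.5% (0.750 to 2.67) of 734 on chromosome X to 4.23% (3.09 to 5.64) of 1040 on chromosome 12, where the whole series gave 2.90%. Chromosome 20, which held the densest stretch, had 35 of 972 (3.60%, 2.52 to 4.97). Chromosome 12 also had the most per length, 0.941 per Mb up to the last peak of any list, against 0.0685 per Mb on chromosome X. Joined H3K27Ac regions of every kind were likewise denser on chromosome 12, with 1040 up to 46.8 Mb, than on chromosome X, with 734 up to 161 Mb.

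Among the 18 regions with H3K9me3, a pair on chromosome 13 were neighbours. Those at chr13:35772369-35775896 and chr13:35780211-35782531 were 3528 and 2321 bp wide and both met H3K9me3 in mOL. They lay 4.31 kb from each other, 595 and 588 kb from H3K4me3 and 12.6 and 5.94 kb from Olig2 of iOL. Both were chosen after their values were seen.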
